A study of Mus musculus with 26 samples.

Results

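Enzyme families known for writing and erasing acetyl and methyl groups on histones and DNA were examined in the mouse striatum. This forebrain region loses its projection neurons in Huntington's disease. Members were taken by gene symbol: the numbered Hdac, Sirt, Kdm, Kat, Setd, Ehmt, Ezh, Dnmt, Tet and Mll genes, the Suv genes, Crebbp and Ep300, with Kdm5c, Kdm5d and Kdm6a left out. This gave 61 of the 14833 genes listed in any deposited table. They comprise 11 histone deacetylases (HDACs), 7 sirtuins, 5 acetyltransferases, 13 lysine demethylases, 20 lysine methyltransferases and 5 enzymes of DNA methylation. These classes follow the symbols, and not every member acts on histones or DNA. Kdm4d and Tet1 were not listed in the 2 virus tables, so 59 members have values in all 5.

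Total RNA of striatum was sequenced in 26 libraries of 9 groups. R6/1 mice, transgenic for huntingtin exon 1 of human origin with an expanded CAG repeat, driven by the human huntingtin promoter, were compared with wild type at 4 weeks and at 8 weeks. CHL2, the other Huntington's disease model in the labels, was compared with wild type at 1 year. Each of these 6 groups had 3 libraries. At 10 weeks, R6/1 and wild-type mice given a control adeno-associated virus (AAV), named mCherry in the tables, were compared with 2 libraries each. In the fifth comparison 4 libraries of 10-week R6/1 given an AAV for the transcription factor Elk-1 were set against the same control-AAV R6/1 group. The labels do not say which promoter drives Elk-1, whether the CHL2 animals carry 1 or both mutant alleles, or whether each library is from its own animal.

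Acetyl groups on histone tails are placed by acetyltransferases such as Crebbp and Ep300 and removed by HDACs and by the NAD-dependent sirtuins. Methyl groups on histone lysines are written by SET-domain enzymes and removed by the Kdm proteins, and they mark active or silent genes depending on the lysine. DNA methyltransferases add methyl groups to cytosine, and Tet enzymes oxidise them, a step abundant in neurons. Crebbp has long been studied in Huntington's disease because mutant huntingtin binds it, and HDAC inhibitors have been tried in its mouse models.

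The tables hold 1 pooled level per group, in FPKM (fragments per kilobase of transcript, scaled to library depth), and the authors' own test. No value per library is given, so the groups' spread and the libraries' depth are unknown. The words rose, fell and called are kept for genes with q below 0.05 in the authors' deposited table. Elk1 itself stood at 15.1 FPKM with control AAV and 30.1 with Elk-1 AAV (q = 0.0122 in the authors' deposited table). Spiny projection neuron markers, 13 genes that define the main neuron of the striatum, were all detected. Their summed level went from 3321 FPKM in wild type to 2628 in R6/1 at 4 weeks, from 3772 to 1468 at 8 weeks, from 3508 to 1862 in CHL2 and from 2886 to 1333 in the control-AAV pair. With Elk-1 AAV it was 1647, against 1365 with control AAV. The number of these 13 genes called lower was 2, 12, 12 and 10 in the genotype comparisons, and 0 were called with Elk-1 AAV, by the authors' deposited tables. In bulk tissue fewer cells of a type and less RNA per cell cannot be told apart.

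Among the enzymes, 3 of 61 passed the authors' test at 8 weeks, the histone demethylases Kdm3a and Kdm4b with lower values and the DNA demethylation enzyme Tet2 with a higher one. That is 4.92% of the enzymes, near the 6.12% of all 14320 genes that were called (0.789% higher and 5.34% lower). In the other 4 comparisons the authors' deposited tables called 0 enzymes, and of all genes 0.468% at 4 weeks, 3.65% in CHL2, 3.24% in the control-AAV pair and 0.575% with Elk-1 AAV. At an unadjusted p below 0.05 the counts were 6 of 61 at 4 weeks (5.36% of all genes), 5 at 8 weeks (14.3%), 9 in CHL2 (13.3%), 2 of 59 in the control-AAV pair (10.7%) and 0 with Elk-1 AAV (4.91%), by the authors' deposited tables.

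The summed level of all the enzymes moved little. It was 1220 FPKM in wild type and 1221 in R6/1 at 4 weeks, 1149 and 1142 at 8 weeks, and 1179 in wild type and 1186 in CHL2 at 1 year. It was 1128 and 1178 in the control-AAV wild type and R6/1 groups, and 1206 and 1238 with control and Elk-1 AAV. On the log2(FPKM + 1) scale the median change of the enzymes was 0.018 at 4 weeks, 0.012 at 8 weeks, 0.041 in CHL2, 0.062 in the control-AAV pair and 0.008 with Elk-1 AAV. The same medians over all genes were 0.001, 0.006, 0.002, 0.014 and 0.013. Between 48 and 58 of the listed enzymes stayed within 20% of the reference level in each comparison. The same count was not taken over all genes, so it does not set the enzymes apart from them.

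**Figure D1:**
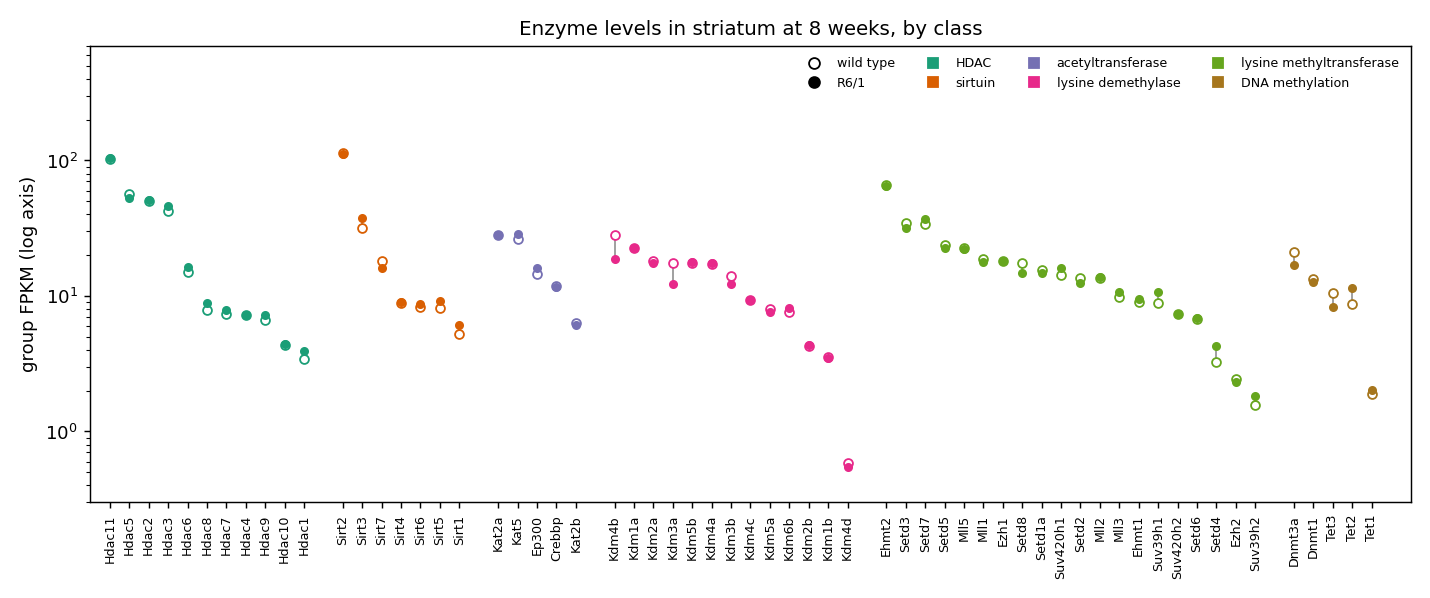
Pooled FPKM (log axis) of the 61 enzymes at 8 weeks, in wild type (open) and R6/1 (filled), coloured by class and ordered by the wild-type level. Most pairs lie on each other, and the widest gaps on this axis include Kdm4b (28.03 and 18.6), Kdm3a (17.5 and 12.3) and Tet2 (8.66 and 11.4).

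**Figure D2:**
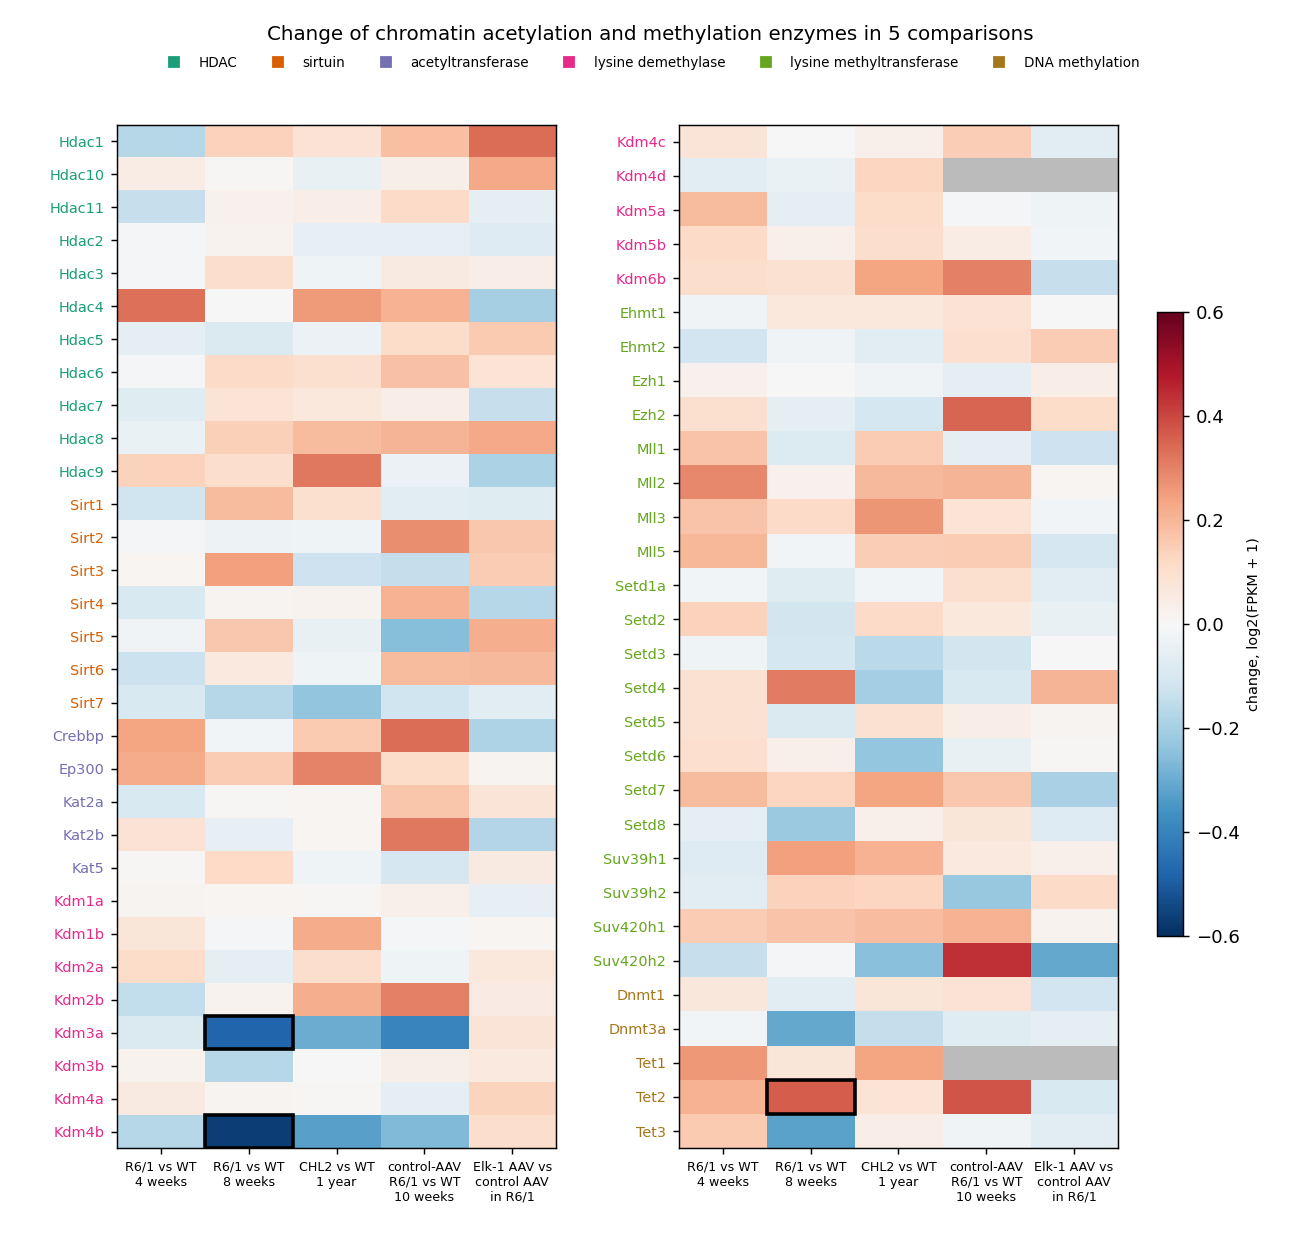
Change of each enzyme on the log2(FPKM + 1) scale, with names coloured by class, 1 column per comparison, black frames for q below 0.05 in the authors' deposited table and grey for genes not listed. The 3 framed cells are Kdm4b (-0.57), Kdm3a (-0.48) and Tet2 (0.36) at 8 weeks.

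Promoter sequences are shown for Kdm3a, Tet2 and Tet3, since the first and second were called at 8 weeks and the second and the third had values in opposite directions there. They are the 250 bases before the transcription start from RefSeq on GRCm38.p6, a later build than the mm9 positions of the tables, written 5′ to 3′ on the gene's strand. Capitals mark matches, on either strand, to the letters CCAAT or GGGCGG (the GC box), 2 promoter motifs that do not overlap here. Kdm4b, also called at 8 weeks, had no entry among the promoters used, so it is not shown. All 3 genes shown lie on the minus strand. Kdm3a, at chr6:71632918-71633167, is 1 of 3 entries of that gene and the one furthest upstream, Tet2 is at chr3:133544391-133544640 and Tet3 at chr6:83441679-83441928.
Kdm3a: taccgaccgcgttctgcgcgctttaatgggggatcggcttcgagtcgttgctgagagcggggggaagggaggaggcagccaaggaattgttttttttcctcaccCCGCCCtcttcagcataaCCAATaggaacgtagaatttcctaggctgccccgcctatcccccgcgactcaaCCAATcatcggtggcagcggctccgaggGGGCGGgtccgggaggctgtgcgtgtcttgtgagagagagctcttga
Tet2: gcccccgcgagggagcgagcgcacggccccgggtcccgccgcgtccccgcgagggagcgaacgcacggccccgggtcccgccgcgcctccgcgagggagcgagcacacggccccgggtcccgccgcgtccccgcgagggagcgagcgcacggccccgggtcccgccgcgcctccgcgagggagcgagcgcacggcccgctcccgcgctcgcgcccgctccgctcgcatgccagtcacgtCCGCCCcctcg
Tet3: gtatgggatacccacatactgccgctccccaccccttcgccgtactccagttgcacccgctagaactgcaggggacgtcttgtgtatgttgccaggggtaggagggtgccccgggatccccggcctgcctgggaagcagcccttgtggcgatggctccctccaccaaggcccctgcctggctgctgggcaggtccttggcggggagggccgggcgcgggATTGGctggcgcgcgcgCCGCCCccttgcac
The Tet2 stretch is 83.6% G or C and repeats the 12 bases ccgcgagggagc 5 times at a spacing of 42 bases. The Tet3 stretch is 69.6% G or C with 1 CCAAT and 1 GC box, and the Kdm3a stretch is 59.6% with 2 of each. Over 76 promoter entries of the 52 enzymes that matched the RefSeq table, 47 (61.8%) held a GC box, against 32.7% of all 32851 promoters of that length. CCAAT was in 28 (36.8%, against 33.8%), the cyclic-AMP element core TGACG in 18 (23.7%, against 17.8%) and CCGGAA, the core bound by Elk-1 and other ETS factors, in 13 (17.1%, against 12%). The Kdm3a entries differed. Of those not shown, the one ending at chr6:71632936 held CCGGAA and a GC box but no CCAAT. The one ending at chr6:71609389 held none of the motifs searched. Both strands were searched, some entries of 1 gene overlap, and a match describes the letters only.

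Among the demethylases, Kdm3a removes mono- and dimethyl marks from lysine 9 of histone H3 and is induced by low oxygen. It lies on chr6:71538965-71582899 in the mm9 positions of the tables. Its level was 15.4 FPKM in wild type and 14.5 in R6/1 at 4 weeks, and 17.5 and 12.3 at 8 weeks. In wild type and CHL2 it was 19.0 and 15.3, and in the control-AAV wild type and R6/1 groups 12.4 and 9.16. The mutant group was the lower one in all 4 genotype comparisons, with the widest gap at 8 weeks. There the authors' deposited table gives a log2 fold change of -0.51 (p = 0.0001, q = 0.00300), and the standard error implied by that p under a normal test is 0.13 (95% interval -0.77 to -0.25). The changes in CHL2 (-0.32, p = 0.0061, q = 0.112) and in the control-AAV pair (-0.43, p = 0.0439, q = 0.434) missed the threshold in the authors' deposited tables. With Elk-1 AAV Kdm3a stood at 9.94 FPKM, against 9.37 with control AAV, with a log2 fold change of 0.08 (q = 0.999 in the authors' deposited table) and an implied interval of -0.29 to 0.46.

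Kdm4b removes di- and trimethyl marks from the same lysine. It lies on chr17:56465472-56542296 in mm9. Its level was 27.5 FPKM in wild type and 24.4 in R6/1 at 4 weeks, 28.03 and 18.6 at 8 weeks, 24.3 and 19.2 in wild type and CHL2, and 22.4 and 18.5 in the control-AAV wild type and R6/1 groups. As for Kdm3a, each mutant group had the lower value. At 8 weeks the authors' deposited table gives a log2 fold change of -0.59 with p at the lowest value it holds (5e-05, q = 0.00160), so the implied error of 0.15 is an upper limit. In CHL2 the fold change was -0.34 (p = 0.0034, q = 0.0759 in the authors' deposited table). With Elk-1 AAV Kdm4b was at 20.4 FPKM, against 18.9 with control AAV, an implied interval of -0.23 to 0.45 around a log2 fold change of 0.11 in the authors' deposited table.

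The paralogs of these genes did not pass in any comparison. Kdm4a, Kdm4b and Kdm4c summed to 54.6 FPKM in wild type and 45.4 in R6/1 at 8 weeks, and the ratio of Kdm4b to Kdm4c went from 3.004 to 1.99. Kdm3a and Kdm3b together went from 31.5 to 24.6 FPKM. Kdm1a, the flavin-dependent demethylase of the CoREST complex, had the highest mean level of the demethylases, 27.0 FPKM over the 10 group values (the control-AAV R6/1 group is listed in 2 tables), and its mutant and control values differed by less than 1 FPKM in every genotype comparison. The H3K4 demethylases Kdm5a and Kdm5b stood at 25.4 FPKM together in both 8-week groups. Kdm6b, an H3K27 demethylase, was at 6.87 FPKM in wild type and 8.27 in CHL2 (p = 0.0315, q = 0.291 in the authors' deposited table). Kdm2b was among the 5 enzymes with the lowest change at 4 weeks (5.01 and 4.42 FPKM, q = 0.999 in the authors' deposited table). Of the 13 demethylases, 8 had lower values in R6/1 at 8 weeks, where 6955 of all 14282 listed genes did, and 4 did at 4 weeks (7182 of 14498). Of these 8, Kdm3a and Kdm4b were called, with 5.34% of all genes called lower there. Scaled to the same FPKM sum, which also shifted the median of all genes upward, 4 of 13 were lower at 8 weeks.

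Of the 5 DNA methylation enzymes, Tet2 alone was called at 8 weeks, where 0.789% of all genes were called higher. As deposited 2 had higher and 3 lower values there, and scaled to the same FPKM sum 3 were higher and 2 lower. Tet2, which oxidises methylcytosine and lacks the DNA-binding CXXC domain of Tet1 and Tet3, lies on chr3:133126640-133207354 in mm9. Its level was 7.11 FPKM in wild type and 8.38 in R6/1 at 4 weeks, 8.66 and 11.4 at 8 weeks, 7.73 and 8.25 in wild type and CHL2, and 3.19 and 4.43 in the control-AAV wild type and R6/1 groups. R6/1 or CHL2 was the higher group each time in the values as deposited. Corrected for transcript length by a fit across all genes, the change of Tet2 on the log2(FPKM + 1) scale turned from 0.08 to -0.02 in CHL2 and went from 0.21 to 0.11 at 4 weeks, while at 8 weeks it was 0.36 before and 0.42 after. At 8 weeks it rose by a log2 fold change of 0.40 (p = 0.00155, q = 0.0292, implied standard error 0.13) in the authors' deposited table. The log2 fold changes at 4 weeks (0.24, p = 0.0306, q = 0.766) and in the control-AAV pair (0.48, p = 0.0405, q = 0.415) missed the threshold in the authors' deposited tables. With Elk-1 AAV Tet2 was at 4.20 FPKM, against 4.54 with control AAV, a log2 fold change of -0.11 in the authors' deposited table.

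Tet3, at chr6:83312367-83391672 in mm9, was lower in R6/1 without passing at 8 weeks, with 10.6 FPKM in wild type and 8.26 in R6/1 (log2 fold change -0.36, p = 0.00515, q = 0.0735 in the authors' deposited table). At 4 weeks it was at 9.76 and 10.99 FPKM, in wild type and CHL2 at 8.17 and 8.44, and in the control-AAV groups at 4.65 and 4.57. The ratio of Tet2 to Tet3 was 0.820 in 8-week wild type and 1.38 in 8-week R6/1, the latter the highest of the 10 group values, whose lowest was 0.685. The summed level of Tet1, Tet2 and Tet3 stayed at 21.1 and 21.7 FPKM. Tet1 was low throughout, at 2.18 FPKM in wild type and 2.81 in R6/1 at 4 weeks (p = 0.0023, q = 0.221 in the authors' deposited table). In wild type and CHL2 it was at 1.59 and 2.06 (p = 0.0075, q = 0.126 in the authors' deposited table).

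Dnmt3a, the de novo methyltransferase of neurons and the highest of this class, was at 21.1 FPKM in 8-week wild type and 16.9 in R6/1 (log2 fold change -0.33, p = 0.0112, q = 0.132 in the authors' deposited table). It had lower mutant values in all 4 genotype comparisons as deposited, though not at 4 weeks when both groups were scaled to the same FPKM sum, with 23.6 and 23.4 FPKM at 4 weeks, 18.1 and 16.3 in wild type and CHL2, and 12.5 and 11.8 in the control-AAV groups. With Elk-1 AAV all 4 listed enzymes of DNA methylation had values below those with control AAV. The changes ran from -0.11 to -0.06 on the log2(FPKM + 1) scale, and 0 were called (unadjusted p below 0.05 in 0 of 4) in the authors' deposited table. All 4 have transcripts longer than the enzymes' median of 4663 bases. Of the 30 listed enzymes at or above that length, 18 had lower values with Elk-1 AAV, and all genes of that length had a median change of -0.028. For Tet2 the change was -0.09, and -0.05 when corrected for transcript length. The part of length in these values was not tested.

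**Figure D3:**
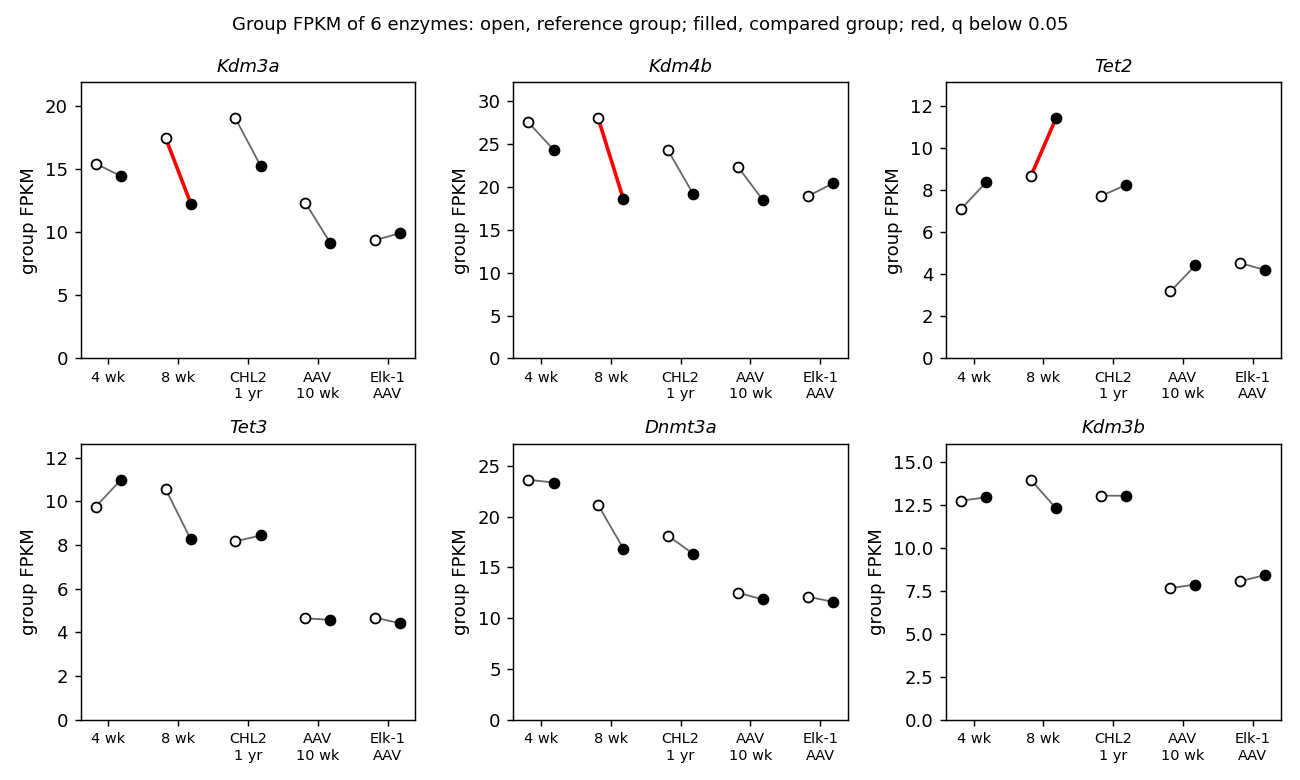
Pooled FPKM of Kdm3a, Kdm4b, Tet2, Tet3, Dnmt3a and Kdm3b in the reference group (open) and the mutant or Elk-1 group (filled) of each of the 5 comparisons, with a red line where q was below 0.05 in the authors' deposited table. Red lines appear at 8 weeks alone, downward for Kdm3a and Kdm4b and upward for Tet2, and no error can be drawn for pooled values.

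Among the HDACs, Hdac11, the sole class IV enzyme, averaged 119 FPKM over the 10 group values, from 98.8 in 4-week R6/1 to 141 in control-AAV R6/1 as listed in the Elk-1 table. Hdac5, Hdac2 and Hdac3 followed with means of 60.7, 55.1 and 54.9 FPKM. Hdac2, a catalytic subunit of nuclear corepressor complexes, exceeded its paralog Hdac1 by 12.6 to 22.4 times in the 10 group values. The number of the 11 HDACs with higher mutant values was 3 at 4 weeks, 10 at 8 weeks, 7 in CHL2 and 9 in the control-AAV pair, and 6 were higher with Elk-1 AAV. Of all listed genes, 7316 of 14498, 7327 of 14282, 7269 of 14367, 6794 of 12963 and 6700 of 12678 had higher values in these comparisons. No HDAC was called in any of them, and at 8 weeks 0 had an unadjusted p below 0.05 (14.3% of all genes). The 8-week count was 8 of 11 when changes were centred on the median of all genes, and the 4-week count was 6 of 11 when both groups were scaled to the same FPKM sum.

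Hdac4, a class IIa enzyme that shuttles out of the nucleus with neuronal activity, was at 5.41 FPKM in wild type and 7.05 in R6/1 at 4 weeks (log2 fold change 0.38, p = 0.0038, q = 0.283 in the authors' deposited table). At 8 weeks it was at 7.23 and 7.25, in wild type and CHL2 at 5.28 and 6.50, and in the control-AAV groups at 2.67 and 3.23. With Elk-1 AAV it was at 2.75 FPKM, against 3.31 with control AAV. None of these differences passed. Hdac9, also of class IIa, was at 5.88 FPKM in wild type and 7.57 in CHL2 (p = 0.00715, q = 0.122 in the authors' deposited table), and at 5.98 and 5.11 with control and Elk-1 AAV (q = 0.999 in the authors' deposited table). Hdac1 (3.44 and 4.59 FPKM), Hdac10 (4.96 and 5.98) and Hdac8 (9.74 and 11.6) were the enzymes with the most positive changes with Elk-1 AAV, and none was called in the authors' deposited table.

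Among the sirtuins, Sirt2, a deacetylase of the cytoplasm that is abundant in myelin-forming cells, was the highest of all 61 enzymes with a mean of 130 FPKM. Its row shares a position with another listed gene, so reads of both may be mixed. It stood at 180 FPKM in wild type and 179 in R6/1 at 4 weeks, 113 and 111 at 8 weeks, 100 and 98.3 in wild type and CHL2, and 107 and 130 in the control-AAV groups. With Elk-1 AAV it was at 149, against 133 with control AAV, and none of these pairs was called in the authors' deposited tables. Oligodendrocyte markers summed to 4982 FPKM in 8-week wild type and 4095 in R6/1 (0 of 9 called) and to 4897 and 3362 in wild type and CHL2 (4 called lower), and their part in the Sirt2 values was not tested. Sirt3, a mitochondrial enzyme whose row also shares its position, was at 31.8 and 37.8 FPKM at 8 weeks (q = 0.696 in the authors' deposited table). Sirt1, the nuclear founder of the family, was at 5.22 and 6.10 (q = 0.678), and Sirt7, of the nucleolus, at 22.7 in wild type and 19.1 in CHL2 (q = 0.409) in the authors' deposited tables. In the control-AAV groups Sirt5 was at 9.88 and 8.13 and Sirt3 at 66.5 and 60.2 FPKM, both uncalled.

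Among the acetyltransferases, Crebbp and Ep300, the coactivators of CREB, had higher values in R6/1 at 4 weeks. Crebbp was at 9.15 and 10.97 FPKM (p = 0.0186, q = 0.632) and Ep300 at 11.4 and 13.5 (p = 0.0282, q = 0.736) in the authors' deposited table. At 8 weeks the pair summed to 26.3 FPKM in wild type and 27.9 in R6/1. In wild type and CHL2 Ep300 was at 12.02 and 15.02 FPKM (log2 fold change 0.32, p = 0.0052, q = 0.102 in the authors' deposited table). Crebbp was at 2.99 and 4.03 in the control-AAV groups and at 4.13 and 3.51 with control and Elk-1 AAV, with no call. Kat5, the catalytic subunit of the NuA4 complex, had the highest mean of the class, 34.0 FPKM. Kat2a, the SAGA acetyltransferase, exceeded Kat2b by 4.41 to 6.58 times. Kat2b was at 4.95 and 6.41 FPKM in the control-AAV groups (q = 0.775 in the authors' deposited table).

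None of the 20 lysine methyltransferases was called in any comparison, where the share of all genes called was highest at 8 weeks (6.12%). An unadjusted p below 0.05 was found for 1 of 20 at 4 weeks (5.36% of all genes) and 2 of 20 in CHL2 (13.3%), which is near or below the share of all genes. The Mll genes, which methylate lysine 4 of histone H3 or, like Mll5, carry a related SET domain, had higher values in 4 of 4 cases at 4 weeks, where their sum went from 51.6 to 60.1 FPKM. In CHL2 again 4 of 4 were higher (61.02 to 69.4), while at 8 weeks 2 of 4 were (64.7 and 64.5). All of them are among the 31 enzymes with transcripts of at least 4663 bases, of which 23 were higher at 4 weeks and 26 in CHL2. All genes of that length had median changes of 0.075 and 0.088 there. The part of length in the Mll values was not tested. Mll2 was at 10.8 and 13.4 FPKM at 4 weeks (p = 0.00515, q = 0.320 in the authors' deposited table) and Mll3 at 9.43 and 11.5 in wild type and CHL2 (p = 0.0111, q = 0.161 in the authors' deposited table). Mll5 shares its listed position with another gene. Setd7, which also does, was at 25.5 and 30.2 FPKM in wild type and CHL2 (p = 0.033, q = 0.300 in the authors' deposited table) and at 28.1 and 24.5 with control and Elk-1 AAV.

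Ehmt2, which dimethylates lysine 9 of histone H3 with its partner Ehmt1, was the most abundant methyltransferase, with a mean of 69.6 FPKM. It stood at 66.02 FPKM in 8-week wild type and 65.1 in R6/1, and was not called there, where the demethylases of the same residue, Kdm3a and Kdm4b, fell. Suv39h1, which trimethylates that lysine, was at 8.88 and 10.7 FPKM at 8 weeks (q = 0.442), and its low paralog Suv39h2, whose row shares its position, at 1.72 and 1.32 in the control-AAV groups (q = 0.971) in the authors' deposited tables. For lysine 20 of histone H4, Setd8 was at 17.4 and 14.8 FPKM at 8 weeks (q = 0.502 in the authors' deposited table). Suv420h2 was at 8.41 and 6.90 in wild type and CHL2, 7.54 and 10.6 in the control-AAV groups and 10.8 and 8.54 with control and Elk-1 AAV (q = 0.452, 0.629 and 0.999 in the authors' deposited tables). Setd4 was at 3.26 and 4.28 at 8 weeks (q = 0.521) and Setd6, a methyltransferase of non-histone targets, at 10.4 and 8.71 in wild type and CHL2 (q = 0.543) in the authors' deposited tables.

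Of the Polycomb pair that methylates lysine 27 of histone H3, Ezh1 exceeded Ezh2, the form of dividing cells, in all 10 group values. The ratio of Ezh1 to Ezh2 was 3.96 in wild type at 4 weeks, 7.44 at 8 weeks and 7.78 at 1 year. Ezh2 itself stood at 3.94, 2.44 and 2.71 FPKM in these wild types, which come from separately normalized tables. Levels also moved with transcript length between these wild types, as given below, and the part of length in the Ezh values was not tested. In R6/1 Ezh2 was at 4.28 at 4 weeks and 2.32 at 8 weeks. The control-AAV groups were at 1.75 and 2.50 FPKM (q = 0.850 in the authors' deposited table).

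Of the genes that work with these enzymes, the subunits of HDAC, Polycomb, COMPASS and acetyltransferase complexes, bromodomain readers, further methyltransferases and the enzymes of acetyl-CoA and S-adenosylmethionine supply, between 116 and 121 were listed in each table. A single one was called in any comparison, Prmt8, a brain arginine methyltransferase, at 41.7 FPKM in 8-week wild type and 29.6 in R6/1 (log2 fold change -0.49 with q = 0.00160, authors' deposited table). This is 1 of 119 partners listed at 8 weeks, against 6.12% of all genes called there, and 0 were called in CHL2 and the control-AAV pair, with 3.65% and 3.24% of all genes. The partners' median change was 0.034 at 4 weeks, -0.009 at 8 weeks, 0.048 in CHL2, 0.053 in the control-AAV pair and 0.001 with Elk-1 AAV on the log2(FPKM + 1) scale.

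Across the 4 genotype comparisons, which share no samples, 5 of 59 enzymes had lower values in the mutant group every time: Dnmt3a, Kdm3a, Kdm4b, Setd3 and Sirt7. That is 8.47%, against 12.8% of the 12853 genes listed in all 4. In the other direction 10 enzymes (16.9%, against 13.9% of genes) had higher values every time: Ep300, Hdac4, Kdm1a, Kdm5b, Kdm6b, Mll2, Mll3, Setd7, Suv420h1 and Tet2. Scaled to the same FPKM sum, a check chosen after the values were seen, 3 enzymes were lower every time (Kdm3a, Kdm4b and Sirt7; 6.94% of all genes) and 28 of 59 higher (27.8% of all genes). Corrected for transcript length, 5 were lower and 15 higher, without Tet2, and centred on the median of all genes 5 were lower and 9 higher, without Hdac4. Most of these differences are small, and apart from Kdm3a, Kdm4b and Tet2 at 8 weeks none was called.

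Whether the genotype effect differed between the ages was tested gene by gene, with errors implied by the deposited p-values and adjustment over all genes. Of 14187 genes 1.29% differed between 8 and 4 weeks, and 0 of the 61 enzymes did, with 4 at an unadjusted p below 0.05 (10.5% of all genes). The difference, 8 weeks minus 4 weeks, was taken from the log2 fold changes of the authors' deposited tables. It was -0.53 for Tet3 (95% interval -0.85 to -0.20, Benjamini-Hochberg adjusted p = 0.0809) and -0.42 for Kdm3a (adjusted p = 0.260). For Kdm4b it was -0.41 (adjusted p = 0.325) and for Hdac4 -0.38 (adjusted p = 0.464). Since the error of Kdm4b is an upper limit, its difference is not decided. For CHL2 against 8-week R6/1, 0.593% of 14155 genes passed and again 0 of 61 enzymes, with 2 at an unadjusted p below 0.05 (7.22% of all genes), Setd4 (-0.65) and Tet3 (0.40), and a lowest adjusted p of 0.470.

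Transcript length moved with the changes in 3 comparisons. The median of the longest annotated transcript was 4663 bases for the enzymes and 3424 for all genes at 4 weeks. Across the enzymes the change correlated with length with a Spearman coefficient of 0.66 at 4 weeks, 0.55 in CHL2 and -0.41 with Elk-1 AAV, where all genes gave 0.48, 0.40 and -0.18. At 8 weeks (-0.18) and in the control-AAV pair (0.06) it was weaker. These are descriptions across genes, which share the same pooled libraries. At 4 weeks the 31 enzymes with transcripts of at least 4663 bases had a median change of 0.115, and 23 were higher, whereas the 30 shorter ones had a median of -0.031, and 10 were higher. All genes of the same length ranges had medians of 0.075 and -0.025. In CHL2 the corresponding medians were 0.112 and -0.024 for the enzymes and 0.088 and -0.031 for all genes. The enzymes with higher values at 4 weeks and in CHL2 that were named above come from these comparisons. Among them are Hdac4, Crebbp, Ep300, the Mll genes and Tet1, and the part of length in their values was not tested.

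**Figure D4:**
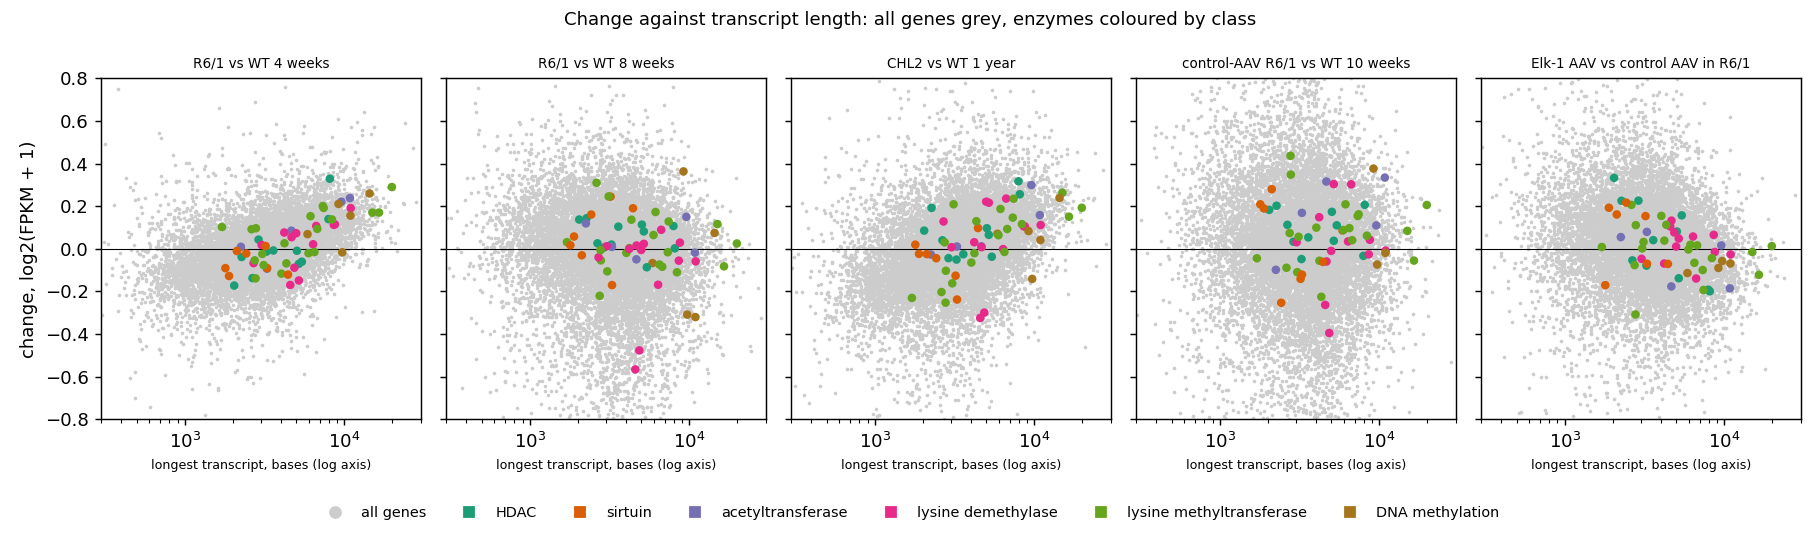
Change on the log2(FPKM + 1) scale against the longest transcript length in bases (log axis) for all genes (grey) and the enzymes (coloured by class), with 1 panel per comparison and changes beyond 0.8 in size not drawn. The enzymes follow the upward trend of all genes at 4 weeks and in CHL2, with Spearman coefficients of 0.66 and 0.55.

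Markers of neighbouring tissue also moved with the groups. Choroid plexus markers summed to 1499 FPKM in 8-week wild type and 578 in R6/1 (5 of 6 called lower), and to 341 and 1572 in the control-AAV groups (3 called higher). Cortical neuron markers went from 321 to 206 at 8 weeks and from 593 to 315 in the control-AAV pair, with 4 called lower in each. Hypothalamic markers went from 68.4 to 177 FPKM in CHL2 (5 called higher), from 65.3 to 439 in the control-AAV pair (4 called higher) and from 450 to 32.8 with Elk-1 AAV (3 called lower). The part of lower projection neuron markers and of neighbouring tissue in the values of the enzymes was not tested.

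For some enzymes the level in control-AAV wild type differed from that in 8-week wild type by more than any enzyme did in a genotype comparison. This did not hold for every enzyme. For Kdm4b the log2 ratio of these wild types was -0.32, whereas its 8-week genotype change was -0.59 in the authors' deposited table. Crebbp was at 11.9 FPKM in wild type at 8 weeks and 2.99 in control-AAV wild type at 10 weeks, whereas Sirt3 was at 31.8 and 66.5. Over 59 enzymes the log2 ratio of these wild types ranged from -1.69 to 1.04 on the log2(FPKM + 1) scale and correlated with transcript length with a Spearman coefficient of -0.83, against -0.65 over all 12749 genes. Such a trend was also present between the wild types without virus. For 8 weeks over 4 weeks the coefficient was 0.60 for the enzymes and 0.43 for all genes. For 1 year over 8 weeks it was -0.64 and -0.52. The tables were normalized separately, and virus and age cannot be told apart in the control-AAV ratio. The labels name no difference in library preparation, so whether there was one is unknown. The shared control-AAV R6/1 group had slightly different values in its 2 tables, 1.023 to 1.024 times higher in the second.

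**Figure D5:**
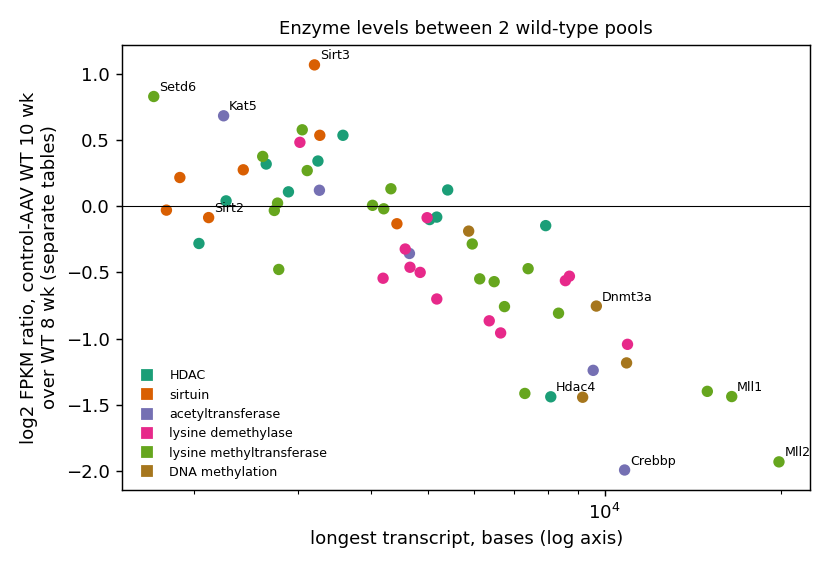
Log2 ratio of the FPKM in control-AAV wild type at 10 weeks over that in wild type at 8 weeks for each of 59 enzymes, against its longest transcript length in bases (log axis), coloured by class. Crebbp (-1.99) lies lowest and Sirt3 (1.07) highest.

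The Elk-1 comparison left every enzyme uncalled while Elk1 itself was called higher. The median error implied by its deposited p-values for the enzymes was 0.19 on the log2 scale, against 0.13 at 8 weeks, so the absence of calls does not show that levels were alike. The implied interval of Kdm3a, -0.29 to 0.46, holds 0, and that of Kdm4b, -0.23 to 0.45, does too. Their log2 fold changes in the control-AAV pair were -0.43 and -0.28 in the authors' deposited table. The control-AAV R6/1 group enters both comparisons, so the 2 sets of values share its error.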

How the data were processed

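Striatal RNA of 26 libraries in 9 groups was prepared with TruSeq from 1 µg of total RNA, per the labels' protocols. Reads were aligned and summarised with TopHat, Bowtie, Cufflinks and Cuffdiff on mm9, per the submitters' processing notes, without versions. Neither strandedness nor annotation is stated in the sources used here. The 5 deposited tables list 14539, 14320, 14402, 12980 and 12701 genes. Every row gives an FPKM value pooled by the authors for each group, a deposited log2 fold change between them, the authors' test statistic (a score), a deposited p-value of at least 5e-05 and a deposited q-value. Depth per library and the spread between libraries are unknown, so limma, permutation and leave-one-out fits could not be run and calls are the authors' q below 0.05, reported as theirs. The p-values come from the authors' test, and how far they reflect variation among a group's libraries cannot be checked from pooled values. Since the labels do not say whether each library is from its own animal, such variation need not be biological. Of the enzymes 7 share their listed position with another gene: Hdac7, Kdm5a, Mll5, Setd7, Sirt2, Sirt3 and Suv39h2. Whether listed starts count from 0 or 1 is not stated.

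Changes were computed as log2(FPKM + 1), with a mean FPKM of at least 0.5 for medians, which all listed members passed; the added 1 understates changes of low genes. Differences of 2 log2 fold changes used errors implied by the deposited p-values under a normal test, adjusted by Benjamini-Hochberg over all genes. The procedure was run on simulated data drawn under the same normal test, which cannot check that assumption. Transcript length is the longest GENCODE M21 transcript of a symbol. Named enzymes are those called in any table, the highest of each class and the 5 most positive and 5 most negative changes per comparison at a mean FPKM of at least 1; others were named after their values were seen. Members, lists and tests were chosen with earlier results of these data known. Python 3.11.15, numpy 2.4.6, pandas 2.3.3, scipy 1.17.1 and matplotlib 3.10.9 were used.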

Additional observations from a re-analysis of the deposited data

How the results depend on the processing

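No paired analysis was possible because the tables hold 1 pooled value per group, and for the same reason leaving out single replicates was not run. The 8-week calls of Kdm3a, Kdm4b and Tet2 passed again when q was adjusted over genes whose mean FPKM reached 1. At q below 0.1, 4 enzymes were called at 8 weeks (Tet3 added) and 1 in CHL2 (Kdm4b) in the authors' deposited tables, where 3 and 0 were at 0.05. At q below 0.01, Kdm3a and Kdm4b were the 2 called at 8 weeks and Tet2 was not. Of 30 medians under other pseudocounts, filters, centring, scaling and length correction, 26 moved by less than 0.05, and the other 4 came from scaling both groups to the same FPKM sum: 0.090 for 8-week R6/1, 0.121 for CHL2, 0.119 for the control-AAV pair and -0.044 with Elk-1 AAV. That scaling shifted the median of all genes to 0.076, 0.072, 0.072 and -0.038, and the enzymes with higher values became 48 of 61, 51 of 61, 48 of 59 and 21 of 59, from 35, 39, 38 and 31. With errors implied by the test statistic in place of p, 9 genes differed between 8 and 4 weeks in place of 183, and 11 between CHL2 and 8 weeks in place of 84, with 0 enzymes each time. Corrected for length, the CHL2 change of Tet2 was -0.02, from 0.08, and its 4-week change 0.11, from 0.21; the cause was not tested. Pooled values limit precision to what the deposited p-values imply.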
